A study of Mus musculus with 2 samples.

Results

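The genes described here encode 10 integrin subunits through which fibroblasts bind the extracellular matrix and activate latent TGF-β: Itgav, Itgb1, Itgb3, Itgb5, Itgb8, Itga5, Itga8, Itga4, Itga1 and Itga11. The genes were picked by name, and every ATAC-seq peak that the deposited annotation assigns to one of these symbols was taken, which gave 58 of 63316 peaks and 10 of 16934 genes with a peak. ATAC-seq marks open chromatin by the reads that the transposase Tn5 releases from it. The libraries were made from primary cardiac fibroblasts of mouse heart, exposed in both conditions to TGF-β, which turns fibroblasts into contractile, matrix-producing myofibroblasts. The study's legend gives the TGF-β dose as 5 ng/ml and the exposure as 24 h. One condition, labelled NC, received scrambled siRNA (SCR), and the other siRNA against the mechanosensitive channel Piezo2 (siPiezo2). Each condition had 1 library, so no difference has a replicate check and no test of the conditions was possible. There was no library without TGF-β among those analysed, so none of the values shows what TGF-β itself did. Strain, age and the number of animals behind the cultures are not given in the labels. The kit named in the labels and the kit and minced tissue described in the methods differ, and the labels were followed. The design text deposited with the series names a Cre-induced knockout of Tet3 in place of the siRNA, and the sample labels were followed here.

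Integrins are pairs of 1 alpha and 1 beta subunit that span the membrane, grip matrix proteins outside the cell and couple to actin through talin and kindlin inside it. Subunit αv pairs with β1, β3, β5, β6 and β8 to bind the RGD sequence in the latency peptide of TGF-β, and for some pairs pulling on that peptide frees the growth factor, which makes these receptors a route from tension to TGF-β signalling. Subunits α5, α8 and α4 pair with β1 to bind fibronectin and related ligands, and α1 and α11 pair with β1 to bind collagen. In fibrotic tissue these receptors are known to link stiffening matrix to myofibroblast activity.

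Promoter sequences are shown for the 2 genes whose start-site peak was below 0.66 of SCR in the siPiezo2 library, Itga1 and Itga4. They are also shown for 2 of the genes whose start-site peak was within counting error of its SCR level, Itgav and Itgb1. The start-site peaks of Itgb3, Itgb5, Itgb8, Itga5 and Itga11 were within counting error too, so the letters marked are no comparison of lower and equal starts. The sequences are RefSeq sequences of the GRCm38.p6 assembly, from 250 bases before to 50 bases from the RefSeq start on, 5′ to 3′ on the gene's strand, and 9 of the 10 genes matched by symbol (all but Itgb3). They lie at chr13:115101915-115102214 on the minus strand for Itga1, chr2:79255176-79255475 on the plus strand for Itga4, chr2:83724147-83724446 on the plus strand for Itgav and chr8:128685404-128685703 on the plus strand for Itgb1. Capitals mark the letters GGGCGG (GC box), CAGAC (SMAD) and CATTCC (TEAD), searched on both strands, with no overlaps between them.
Itga1: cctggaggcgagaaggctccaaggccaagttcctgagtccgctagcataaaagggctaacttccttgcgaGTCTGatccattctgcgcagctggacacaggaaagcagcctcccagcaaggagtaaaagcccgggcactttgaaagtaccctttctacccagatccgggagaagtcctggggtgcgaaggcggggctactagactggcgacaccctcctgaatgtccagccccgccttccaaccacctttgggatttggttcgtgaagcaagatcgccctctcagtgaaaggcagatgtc
Itga4: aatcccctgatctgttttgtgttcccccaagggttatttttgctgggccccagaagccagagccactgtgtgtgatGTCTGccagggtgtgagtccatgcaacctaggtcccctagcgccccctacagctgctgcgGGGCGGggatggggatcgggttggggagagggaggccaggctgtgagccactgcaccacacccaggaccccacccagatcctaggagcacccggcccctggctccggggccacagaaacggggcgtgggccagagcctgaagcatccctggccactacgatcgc
Itgav: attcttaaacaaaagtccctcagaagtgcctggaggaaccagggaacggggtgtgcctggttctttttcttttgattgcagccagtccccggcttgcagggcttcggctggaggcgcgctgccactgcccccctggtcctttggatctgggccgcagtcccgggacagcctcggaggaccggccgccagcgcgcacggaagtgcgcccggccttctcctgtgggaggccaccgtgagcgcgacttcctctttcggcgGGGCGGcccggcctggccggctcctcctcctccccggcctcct
Itgb1: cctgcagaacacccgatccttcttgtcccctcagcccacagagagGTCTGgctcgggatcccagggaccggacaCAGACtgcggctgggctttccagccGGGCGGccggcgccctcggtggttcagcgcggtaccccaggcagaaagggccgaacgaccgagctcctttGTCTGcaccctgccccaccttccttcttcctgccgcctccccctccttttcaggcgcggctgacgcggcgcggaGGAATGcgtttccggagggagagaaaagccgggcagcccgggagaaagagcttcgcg
Among the 9 integrin promoters, 5 held the GC box letters (35.7% of all 32851 promoters in the table did), 5 held the SMAD letters (49.6% of all) and 1, that of Itgb1, held the TEAD letters (14.7% of all). The letters of the SRF motif, the CArG box, occurred in 0 of the 9 (1.63% of all promoters), and so did those of AP-1, TGANTCA (7.81% of all). The 9 promoters held from 56.7% to 68.0% G or C, where the median of all promoters was 52.7% and their upper quartile 61.7%. The peaks are given in another assembly, so sequence and peak were placed only through the transcript start. The Itga1 peak ran from -385 to 400 bases of it and the Itgb1 peak from -287 to 206, and both RefSeq starts coincide with that start in GRCm38. The Itga4 peak ran from -339 to 530 with the RefSeq start at -74, and the Itgav peak from -197 to 144 with the RefSeq start at -55.

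Across the 58 integrin peaks, 40 had a lower normalized density in the siPiezo2 library, 69.0% of them (95% exact binomial interval 55.5% to 80.5%), against 63.7% of all peaks. Below 0.66 of SCR, the lower fold that the methods set for expression and that is used here for peaks, were 12 integrin peaks (20.7%, interval 11.2% to 33.4%) in 7 of the genes, against 13.5% of all peaks. Above 1.5 of SCR, the upper fold, were 0 integrin peaks, against 3.21% of all peaks. With median-of-ratios scaling in place of the authors' normalization, 8 integrin peaks were below and 1 above these folds against 8.27% and 6.20% of all peaks. These intervals treat peaks as separate draws, although peaks of a gene share a locus and 8 of the 58 counting windows overlap the window before them. The 3 peaks just inside the threshold were at Itgb5 intron 12 (0.624 of SCR), the Itga1 5′ UTR (0.632) and the Itga4 5′ UTR (0.652). Just outside it were peaks at Itgb1 intron 14 (0.661), Itga8 intron 25 (0.691) and Itga1 intron 9 (0.702).

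**Figure D1:**
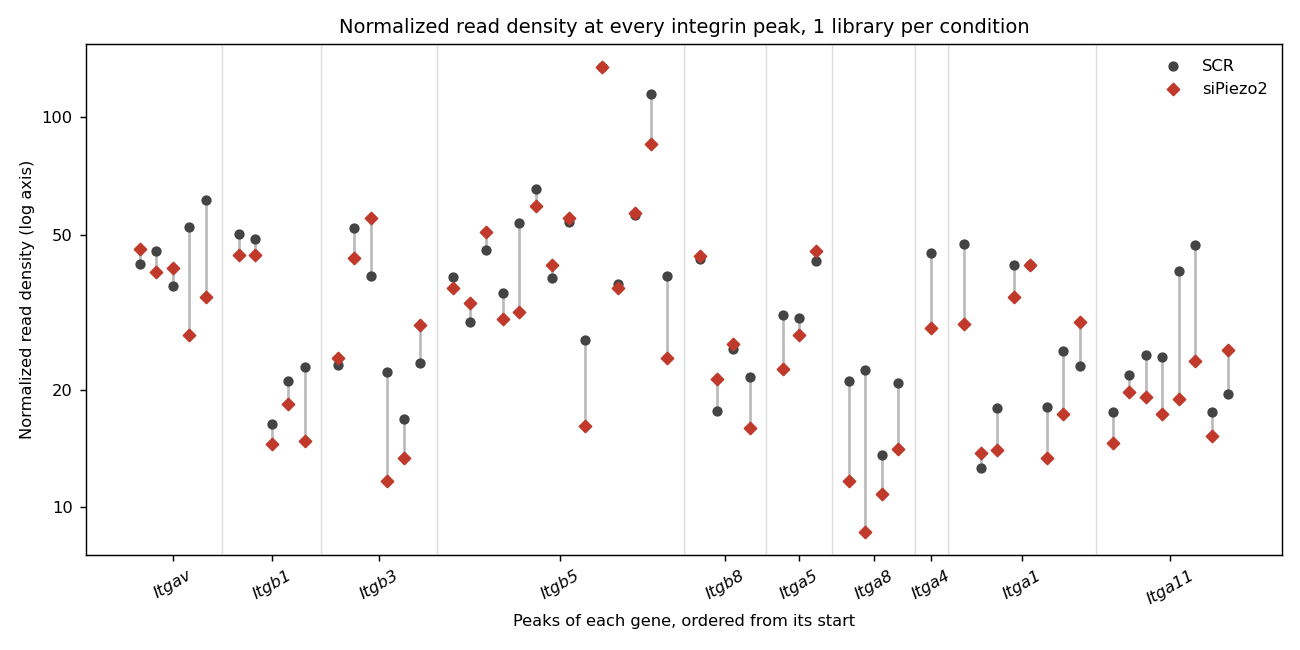
Normalized read density (log axis) at each of the 58 integrin peaks, ordered from the start of each gene, with circles for the SCR library and diamonds for the siPiezo2 library, joined by a line. The longest lines downward lie within Itga8, Itga11, Itgav and Itgb3, while the strongest peak, in Itgb5 at 134 in both libraries, has none.

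The authors' density is taken to be a count of reads per kb in a window around a peak's summit. It is taken as adjusted so that peaks called in both libraries centre on a ratio of 1. Log2 ratios are log2((siPiezo2 + 1)/(SCR + 1)), which understates the change at weak peaks. The number of reads behind each density was recovered from the table, and integrin windows held between 28 and 376 reads in SCR (median 81) and between 14 and 190 in siPiezo2 (median 43.5). Intervals of log2 ratios are 95% exact binomial (Clopper-Pearson) intervals from these reads. They compare the libraries and cover counting error only, while the ratios of peaks shared by the libraries varied 2.04 times as much as counting allows, in variance. Intervals widened for that variance, in a normal approximation chosen after seeing the data, are called widened intervals below. The interval lay below 0 at 13 of the 58 integrin peaks, against 11.4% of all peaks, and above 0 at 1, against 3.63%. Widened, it lay below 0 at 6, against 4% of all peaks. At a stricter fold, 2 integrin peaks were below 0.5 of SCR, against 2.76% of all peaks, so that 2 of 58 was near the background. In a bulk library, fewer cells with a site open and less opening per cell cannot be told apart.

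Summed over the peaks of each gene, the log2 ratio was below 0 for 9 of the 10 genes, against 62.6% of all genes, with a median of -0.23 over the 10 and -0.093 over all genes. The order from the lowest was Itga8 at -0.77, Itga4 at -0.62, Itga11 at -0.47, Itgav at -0.33, Itga1 at -0.23, Itgb1 at -0.22, Itgb5 at -0.15, Itga5 at -0.13, Itgb8 at -0.0057 and Itgb3 at 0.0056. Alpha subunits took the 5 lowest places in this order, but not under every setting: with recovered reads at the same total Itgb5 (-0.19) and Itgb1 (-0.12) lay below Itga1 (-0.089). The interval lay below 0 for 6 genes (Itga8, Itga4, Itga11, Itgav, Itga1 and Itgb5), against 15.2% of all genes, and above 0 for 0 genes, against 4.37% of all genes. Widened, it lay below 0 for 3 genes, Itga8, Itga11 and Itgav, against 7.1% of all genes. Every peak of Itga8, Itga11 and Itga4 was called in the SCR library only, as were 64.0% of all peaks. These genes thus entered through the library in which they are higher, and all peaks called there only had a median of -0.23. Genes with more peaks have narrower intervals: of all genes with 1 peak, as Itga4 has, 7.06% had an interval below 0, and of all with 8, as Itga1 and Itga11 have, 41.0% did. Neighbours in the order overlapped. The interval of Itga8 lay wholly below those of Itgb5, Itgb8 and Itgb3, and that of Itga11 below that of Itgb3, but with widened intervals every gene overlapped every other. Scaling moved the level of all genes from -0.093 to 0.043 with median-of-ratios, and the 10 genes moved with it to a median of -0.086, so that their distance from all genes was -0.13 under both. Over peaks beyond 3 kb of a TSS alone, which 8 of the genes had, that distance was -0.014, with 5 of the 8 below the median of all genes. Genes with as many peaks as the integrin genes were themselves mostly lower than all genes, with medians of -0.061 for 1 peak, -0.10 for 3, -0.14 for 4, -0.12 for 5, -0.16 for 6, -0.14 for 8 and -0.15 for 14. Under that scaling Itga5 (0.011), Itgb8 (0.13) and Itgb3 (0.14) lay above 0.

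**Figure D2:**
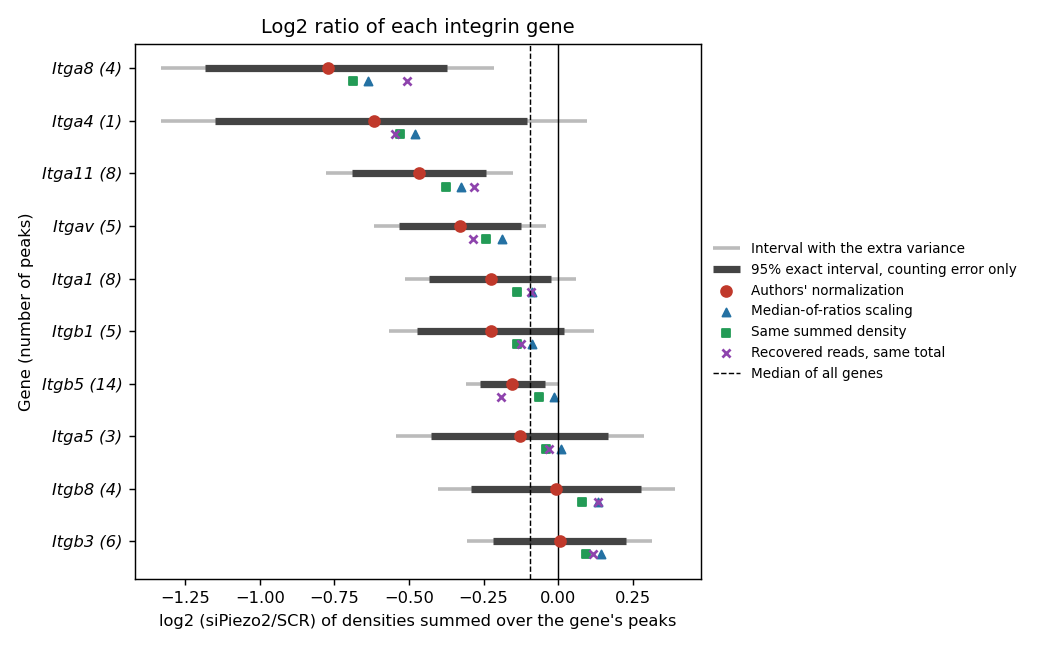
Log2 ratio of densities summed over each gene's peaks (circles), with the 95% exact interval from counting (thick bars), the widened interval (thin bars) and the same ratio under 3 other scalings. Itga8, Itga11 and Itgav lie left of 0 with both bars, Itgb8 and Itgb3 sit at 0, and the other scalings move most genes to the right, with Itga5 and Itgb8 crossing 0 under median-of-ratios.

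Itgav encodes αv, the subunit shared by all the TGF-β-activating pairs named above. Its 5 peaks on chromosome 2 (gene ENSMUSG00000027087, from 83554741 to 83637260) reached 238 in total in SCR and 189 in siPiezo2, which is a log2 ratio of -0.33 (interval -0.54 to -0.12). The lower total came from inside the gene and not from its start. The promoter peak had 42.0 in SCR and 45.9 in siPiezo2 (log2 ratio 0.13, interval -0.33 to 0.57). In intron 1, a peak from 83558768 to 83559019 had 45.2 and 40.0, and another from 83559718 to 83560015 had 36.9 and 41.0 in a window that overlaps the first. These 3 sites near the start were therefore within counting error of equal. Further in, the intron 2 peak from 83574612 to 83575224 had 52.4 in SCR and 27.7 in siPiezo2 (131 and 43 reads, log2 ratio -0.90, interval -1.43 to -0.39). The intron 4 peak from 83588979 to 83589478, the strongest of the gene, had 61.3 and 34.6 (156 and 53 reads, log2 ratio -0.81, interval -1.29 to -0.35). Both were called in both libraries, and both stayed below 0 with the widened interval (up to -0.19 and -0.17). With the promoter peak alone the log2 ratio of Itgav is 0.13, of opposite sign to that of the whole gene.

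Itgb5 encodes β5, which with αv binds vitronectin and latent TGF-β and is an αv partner that myofibroblasts are known to use when they contract. It had the most peaks of the 10 genes, 14 on chromosome 16 (ENSMUSG00000022817, from 33650035 to 33769708), whose densities added up to 770 in SCR and 692 in siPiezo2. Its mean over the libraries was at percentile 99.8 of all genes. The log2 ratio of -0.15 (interval -0.26 to -0.045) averaged sites that differed from each other. At the strongest, in intron 9 from 33736861 to 33737722, the density was 134 in both libraries (376 and 190 reads, log2 ratio -0.00062, interval -0.26 to 0.25). The promoter peak had 39.0 and 36.5, and the peak at a second start within the gene, from 33711846 to 33712443, had 53.9 and 55.2. These sites were thus close to equal. Lower past the fold were peaks in intron 3 from 33693461 to 33693949 (53.6 and 31.7, log2 ratio -0.74), in intron 5 from 33714856 to 33715096 (26.8 and 16.1, log2 ratio -0.70) and in intron 12 from 33765172 to 33765485 (39.2 and 24.1, log2 ratio -0.68). The second strongest peak, in intron 11 from 33761507 to 33762125, had 114 and 85.5 (312 and 124 reads, log2 ratio -0.42, interval -0.73 to -0.11). The 3 lowest sites and the intron 11 peak had intervals below 0, and that of the intron 3 peak stayed there when widened (up to -0.067). The other 10 peaks had log2 ratios from -0.21 to 0.16, and 1 of them, in intron 1, was called in the siPiezo2 library only. With median-of-ratios scaling the gene-level log2 ratio of Itgb5 was -0.014.

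Itgb1 encodes β1, the partner of αv, α5, α8, α4, α1 and α11 and so of every alpha subunit described here. Its 5 peaks on chromosome 8 (ENSMUSG00000025809, from 129412135 to 129459681) summed to 159 and 136, a log2 ratio of -0.22 (interval -0.47 to 0.020). All 5 were lower in siPiezo2, each with an interval that included 0. The promoter peak, from 129411848 to 129412341, had 50.3 and 44.3 (log2 ratio -0.18), and the neighbouring intron 1 peak, whose window overlaps it, had 48.8 and 44.2. The lowest ratio was at intron 14, with 22.8 and 14.8 (53 and 24 reads, log2 ratio -0.60, interval -1.36 to 0.12).

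Itgb3 and Itgb8, which encode the αv partners β3 and β8, were the 2 genes whose sums were nearly equal in the libraries. The 6 peaks of Itgb3 on chromosome 11 (ENSMUSG00000020689, from 104498826 to 104561302) summed to 176 in SCR and 177 in siPiezo2 (interval of the log2 ratio -0.22 to 0.23). That balance held opposite members. A peak in intron 2 from 104516818 to 104517269 had 39.0 and 55.1 (99 and 85 reads, log2 ratio 0.49, interval 0.050 to 0.92), the highest ratio of all 58 peaks and the single integrin peak whose interval lay above 0, though not when widened (from -0.11). Another peak in the same intron, from 104515480 to 104516072, had 51.8 and 43.6 (log2 ratio -0.24) in a window that overlaps the first. The intron 6 peak from 104529858 to 104530083 had 22.3 and 11.7 (51 and 19 reads, log2 ratio -0.87, interval -1.72 to -0.089). The start-site peak in the 5′ UTR had 23.2 and 24.2 (log2 ratio 0.057). With only the 4 peaks in separate windows, the gene's log2 ratio was -0.15 (interval -0.43 to 0.13).
Itgb8, whose protein β8 presents latent TGF-β to other cells without strong ties to actin, had 4 peaks on chromosome 12 (ENSMUSG00000025321, from 119121757 to 119202537), summing to 108 and 107 (interval -0.29 to 0.28). The 5′ UTR peak had 43.2 and 43.9, the intron 1 peak 17.7 and 21.4, and the intron 12 peak 25.5 and 26.2. The peak downstream of the gene had 21.6 and 16.0 (log2 ratio -0.41, interval -1.15 to 0.30). None of the 4 peaks left the range that counting error allows.

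Among the fibronectin receptors, Itga5 encodes α5, the main fibronectin-binding partner of β1. Its 3 peaks on chromosome 15 (ENSMUSG00000000555, from 103252713 to 103275190) summed to 104 and 95.5, a log2 ratio of -0.13 (interval -0.43 to 0.17). The 5′ UTR peak had 30.5 and 27.7, the strongest peak, in intron 3, 42.7 and 45.3, and the peak at -1614 bases from the start 31.1 and 22.6 (log2 ratio -0.45, interval -1.06 to 0.14). All 3 were within counting error of equal.
Itga8 encodes α8, which with β1 binds nephronectin, fibronectin and the TGF-β latency peptide and is found in mesenchymal cells. Its gene-level ratio was the lowest of the 10 as reported, at percentile 2.91 of all genes. With the 12 nearest intergenic peaks added, an alternative chosen after seeing the data, its log2 ratio was -0.37, above those of Itga4 (-0.49), Itgb1 (-0.47) and Itga11 (-0.47). With recovered reads at the same total it was -0.51, above Itga4 (-0.55), and by the strongest peak of each gene it was -0.53, above Itga11 (-0.96), Itgav (-0.81) and Itga4 (-0.62). Its 4 peaks on chromosome 2 (ENSMUSG00000026768, from 12111443 to 12306733) reached 78.0 in total in SCR and 45.2 in siPiezo2, which is a log2 ratio of -0.77 (177 and 74 reads, interval -1.18 to -0.37, widened -1.33 to -0.21). All 4 were in introns, all were lower, and all were called in the SCR library only. The intron 13 peak from 12217980 to 12218197 had 22.5 and 8.65 (51 and 14 reads, log2 ratio -1.29, interval -2.25 to -0.41), the lowest ratio of all 58 peaks. The intron 6 peak had 21.0 and 11.7 (log2 ratio -0.80), that of intron 25 had 20.9 and 14.1 (-0.53) and that of intron 23 had 13.6 and 10.8 (-0.30). These were weak sites, from percentile 2.78 to percentile 23.2 of all peaks by mean density. The start of Itga8 carried no assigned peak, in contrast to the other 9 genes.
Itga4 encodes α4, which with β1 binds fibronectin and the endothelial adhesion protein VCAM1. It had 1 peak, in the 5′ UTR on chromosome 2 from 79085505 to 79086374 (gene ENSMUSG00000027009), with a density of 44.7 in SCR and 28.8 in siPiezo2 (111 and 45 reads, log2 ratio -0.62, interval -1.15 to -0.10). The peak was 869 bp wide, the widest of the 58, and was called in the SCR library only. Its widened interval reached 0.097.

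Of the collagen receptor genes, Itga1 encodes α1, which with β1 binds collagen IV and fibrillar collagens. Its 8 peaks on chromosome 13 (ENSMUSG00000042284, from 115089632 to 115238500) summed to 228 and 194, a log2 ratio of -0.23 (interval -0.43 to -0.022). The peak at its start, in the 5′ UTR from 115238100 to 115238885, had 47.3 and 29.5 (118 and 46 reads, log2 ratio -0.66, interval -1.19 to -0.16, widened up to 0.040). It was the only one of the 8 past the fold. The other 7, all in introns, had log2 ratios from -0.51 to 0.36 with intervals that included 0. Its strongest peak, in intron 6 from 115158033 to 115158357, had 41.8 and 41.9. Taken alone, that peak puts the gene at 0.0044. With only the 7 peaks in separate windows, the gene's interval reached 0.0085.
Itga11 encodes α11, a receptor for fibrillar collagen that cultured fibroblasts use to contract collagen gels. Its 8 peaks on chromosome 9 (ENSMUSG00000032243, from 62585108 to 62691264) summed to 213 and 154, a log2 ratio of -0.47 (506 and 248 reads, interval -0.69 to -0.24, widened -0.78 to -0.15). All 8 were called in the SCR library only. The promoter peak had 17.6 and 14.6 (40 and 24 reads, log2 ratio -0.25, interval -1.05 to 0.52). The intron 4 peak from 62639144 to 62639404 had 40.4 and 19.0 (98 and 30 reads, log2 ratio -1.05, interval -1.69 to -0.45). The intron 5 peak from 62639864 to 62640383, the strongest of the gene, had 47.0 and 23.6 (116 and 37 reads, log2 ratio -0.96, interval -1.54 to -0.42). These neighbouring peaks share part of their windows, so they are not separate measurements, and with only 1 of them kept the gene stood at -0.35 (interval -0.59 to -0.10). The other 6 peaks had intervals that included 0, and the last, in intron 28, was higher at 19.6 and 25.2 (log2 ratio 0.35).

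**Figure D3:**
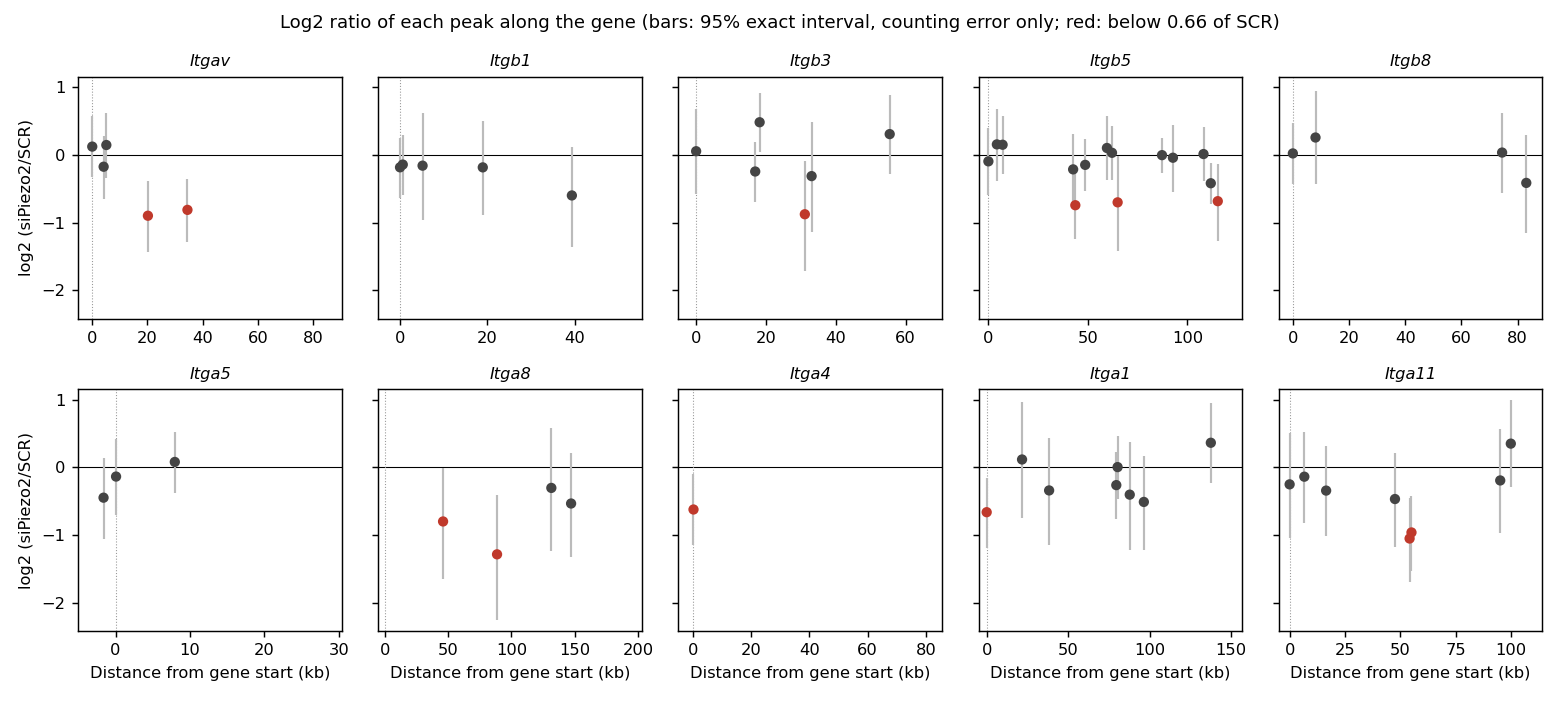
Log2 ratio of each integrin peak against its distance from the gene's start in kb, 1 panel per gene, with 95% exact intervals for counting error only and peaks below 0.66 of SCR in red. At Itgav the sites at the start lie near 0 and the 2 sites further in lie below, at Itga1 the red point is the start-site peak, and Itgb8 has no red point.

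At the starts of the genes, 9 of the 10 had a peak whose summit lay within 1 kb of the gene's 5′ end. The nearest such peak was lower in siPiezo2 for 6 of the 9, with a median log2 ratio of -0.14, and below 0.66 of SCR for 2, Itga1 and Itga4. Of all peaks within 1 kb of a TSS, 55.5% were lower and 6.43% below 0.66, with a median of -0.042. From the lowest the order was Itga1 (-0.66), Itga4 (-0.62), Itga11 (-0.25), Itgb1 (-0.18), Itga5 (-0.14), Itgb5 (-0.092), Itgb8 (0.025), Itgb3 (0.057) and Itgav (0.13), and the intervals of all 9 overlapped each other. The 48 integrin peaks away from these starts had a median log2 ratio of -0.23, and 10 of them were below 0.66. All peaks beyond 3 kb of a TSS, a stricter class, had a median of -0.17 and 15.9% below 0.66. All peaks, those at starts included, had a median of -0.13 and 13.5% below 0.66.
Where a peak had been called moved with its direction, in the integrin genes as in all peaks, and calling itself depends on the signal in that library. Called in SCR only were 34 integrin peaks (58.6%, against 64.0% of all peaks). Their median log2 ratio was -0.33 (all such peaks, -0.23), and 8 were below 0.66 (23.5%, against 18.3%). The 23 called in both libraries had a median of -0.00062 (all such peaks, 0.0025), and 4 were below 0.66 (17.4%, against 5.36%). These 4 were the intron 2 and intron 4 peaks of Itgav, the intron 3 peak of Itgb5 and the 5′ UTR peak of Itga1. The authors' normalization is taken to centre all peaks called in both libraries on a ratio of 1, so their median near 0 is no measurement.
By position, 45 of the 58 peaks were in introns (77.6%, against 42.0% of all peaks), with a median of -0.19 (all intron peaks, -0.17), and 10 of them were below 0.66 (22.2%, against 14.8%). Intergenic peaks carry no symbol in the table, so they could not be among the 58, which raises the intron share. Of the 13 integrin peaks within 1 kb of any annotated TSS, 3 were below 0.66 (23.1%, against 6.43%), the third being the Itgav intron 4 peak beside the start of another transcript. This class was added after seeing the data. In the table's promoter class within 1 kb, 0 of 5 integrin peaks were below 0.66, against 5.86% of all peaks, because the start peaks of Itga1 and Itga4 are classed there as 5′ UTR and the Itgav peak as intron. Beyond 3 kb of a TSS, 8 of 41 integrin peaks were below 0.66 (19.5%, against 15.9%).

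**Figure D4:**
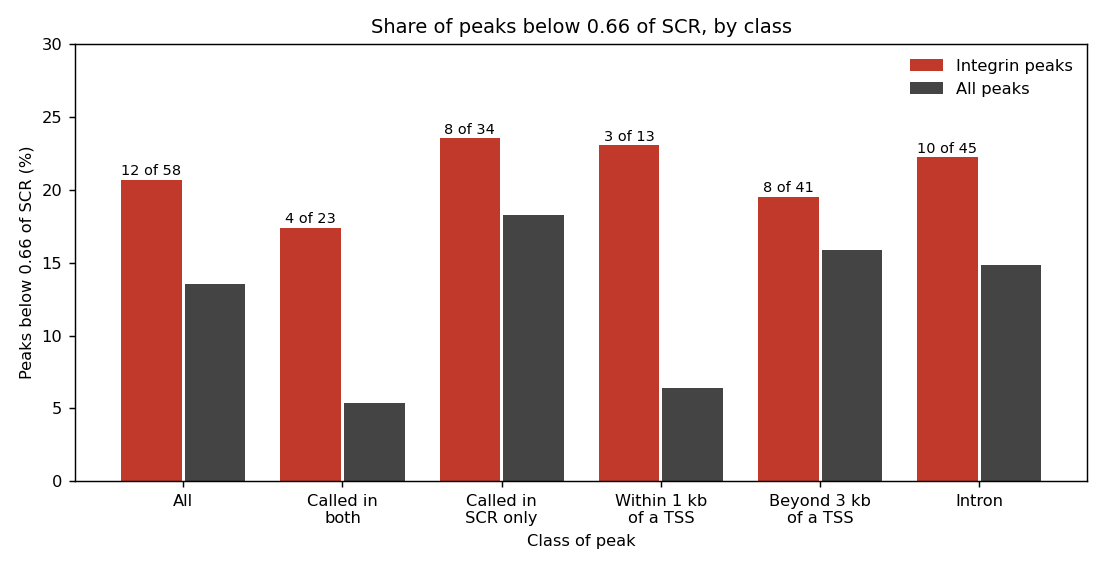
Percent of peaks below 0.66 of SCR by class, for the integrin peaks (left bars, with the number of peaks) and for all peaks (right bars). The integrin bar is the higher in each class drawn, for example at 23.1% against 6.43% within 1 kb of a TSS and 19.5% against 15.9% beyond 3 kb, on between 13 and 58 integrin peaks. Classes with few integrin peaks are not drawn, among them promoters within 1 kb (0% against 5.86%).

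Partners of these integrins were described by lists of genes, beside all genes, of which the median was -0.093, 15.2% had an interval below 0 and 4.37% one above 0. Genes with more peaks pass more often, as with the 41.0% below 0 among genes with 8 peaks, and genes of these lists held up to 31 peaks. Of 12 other integrin alpha subunits, 10 had a peak, with a median log2 ratio of -0.19. The interval lay below 0 for 3 of the 10 and above 0 for 2. Itga9, a receptor for tenascin and other matrix ligands, had 245 in SCR and 182 in siPiezo2 (log2 ratio -0.42, interval -0.63 to -0.22). Itga2b, the platelet subunit, had 158 and 204 (log2 ratio 0.37, interval 0.15 to 0.58). Of the 4 other beta subunits, all had a peak, and Itgb6, the epithelial αv partner, had 257 and 225 (log2 ratio -0.19, interval -0.38 to -0.0017). Of the other alpha subunits with a peak, 7 lay below 0 and 3 above, and of the other beta subunits 3 and 1. Below 0.66 of SCR were 8 of the 35 alpha peaks (22.9%) and 0 of the 14 beta peaks, against 13.5% of all peaks. The extremes were Itgae at -1.08 (interval -1.75 to -0.46) and Itga10 at 0.46 (interval 0.10 to 0.82). The remaining integrins thus spread on both sides of 0, and lower values were not particular to the 10 genes described here.
Of 9 genes for latent TGF-β and the proteins that hold it, 8 had a peak, with a median of -0.16, an interval below 0 for 2 and above 0 for 1. Ltbp4, a latent TGF-β binding protein of elastic fibres, had 225 and 155 (log2 ratio -0.53), Tgfb2 had 177 and 141 (-0.33), and Ltbp3 was higher at 165 and 199 (0.27). Of 13 matrix ligands, 11 had a peak, and their median of -0.41 was the lowest of the lists. The interval lay below 0 for 5 (Fn1, Tnc, Fbn1, Col1a1 and Col1a2) and above 0 for 0. Fn1, which encodes fibronectin, the ligand of α5β1, α4β1 and αv integrins, had 268 and 147 (log2 ratio -0.87, interval -1.09 to -0.65). Col4a1 (0.027) and Col4a2 (-0.0057), the collagen IV genes, were near 0. Of 17 activators and adaptors at integrin tails, 15 had a peak, with a median of -0.14, an interval below 0 for 5 and above 0 for 1. Both talin genes were among the lower ones, Tln1 at -0.31 and Tln2 at -0.36, and Zyx, which encodes zyxin, was higher at 0.25 (223 and 265). These lists were written with earlier results of these data known and are described without a test.

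The 63316 peaks held 4615335 recovered reads in SCR and 2754046 in siPiezo2, with medians of 58 and 36 per window. Piezo2 itself had 14 peaks with a summed density of 334 and 242, which is no measure of the knockdown, since an siRNA acts on the transcript. Fibroblast markers had a peak for 8 of 10 genes (all but Lum and Thy1), with summed densities of 1152 and 1025, of which Ddr2 made up 464 and 463. Their median log2 ratio was -0.30, lower than that of the integrin genes, and the interval lay below 0 for 3 of the 8, Col1a1 (-0.44), Col1a2 (-0.50) and Pdgfrb (-0.46). Cardiomyocyte markers had a peak for 3 of 7 genes (none for Myh6, Myh7, Nppa and Tnni3), summing to 146 and 152. Endothelial markers had one for 4 of 5 (none for Tie1), summing to 359 and 382, leukocyte markers for 2 of 5 (none for Cd68, Adgre1 and Lyz2), summing to 133 and 112, and mural cell markers for 3 of 4 (none for Mcam), summing to 413 and 340. Within a list the markers differed. Among the mural markers Rgs5 was at a log2 ratio of -1.16, Myh11 at -0.23 and Cspg4 at 0.16. Among the endothelial markers Cdh5 was at 0.70, Pecam1 at 0.0068, Tek at -0.063 and Kdr at -0.098. A peak marks an open site and not expression, and the part of the fibroblast markers' shift and of other cell types in the integrin values was not tested.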

How the data were processed

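The deposited table holds 1 row per peak with 1 normalized read density (signal) per library, made by the authors. Per the methods, reads were aligned with bwa (BWA 0.7.12 in the submitters' processing notes), duplicates removed with Picard and peaks called with MACS2. The table's M, A, log2 fold and p-value columns are the authors' own comparison and were not used. The notes name mm10, but of 21058 transcripts found in the GRCm38 annotation 430 had the same coordinates in the table while 97.2% had the same length, and scaffold names are those of GRCm39. Positions are given as in the table, and no sequence was read by them.

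Densities were summed per gene over the peaks with its symbol. Reads were recovered from the densities alone: the product of both densities keeps the product of the reads, and a search over the intercept and slope of the linear fit kept those giving whole numbers in windows of 2000 bp (100% of peaks within 0.05 of whole numbers). Of each window's number 1 was taken off, as normalizations of this form add it. No source used here states this addition. The read recovery and the intervals of single peaks were tested on simulated data with the same form of normalization and counting error only. Such data cannot show how the intervals hold under the extra variance or for sums over a gene. Alternatives were other scalings, a pseudocount of 0.1, a 2-fold threshold and subsets of peaks. The genes, lists and tests were chosen with earlier results of these data known. Peaks named singly are each gene's strongest peak, its promoter or start peaks and those past the fold, and others were added after their values were seen. Tables were handled with pandas 2.3.3 and numpy 2.4.6 in Python 3.11.15. Intervals came from scipy 1.17.1, and plots from matplotlib 3.10.9.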

Additional observations from a re-analysis of the deposited data

How the results depend on the processing

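The median log2 ratio over the 10 genes was -0.086 with median-of-ratios scaling, -0.14 with equal summed densities and -0.16 with recovered reads at the same total, against -0.23 as reported, and it was -0.14 over peaks called in both libraries, where 7 genes had a peak. With each of these 3 scalings, and as reported, 8 of the 10 genes lay below the median of all genes. That number was 4 of 7 over peaks called in both libraries, 3 of 5 over promoter classes, 5 of 8 beyond 3 kb of a TSS and 6 of 10 by each gene's strongest peak. The count of integrin peaks below 0.66 of SCR was 12, and it was 4 among the 23 called in both libraries (5.36% of all such peaks), 0 among the 6 in promoter classes (6.96% of all), 3 within 1 kb of a TSS by distance (6.43% of all, chosen after seeing the data) and 2 with a 2-fold threshold (2.76% of all). These fewer peaks follow from the smaller subsets or the stricter fold. The count above 1.5 went from 0 to 1 with median-of-ratios scaling. The percent of integrin peaks lower in siPiezo2 was 52.2% among those called in both libraries, where that of all peaks was 49.7%, against 69.0% as reported. The sign of Itgav turned with promoter-class peaks alone (0.13) and that of Itga1 with its strongest peak alone (0.0044). Genes whose interval included 0 also changed sign under some settings: Itga5 reached 0.080 with peaks called in both libraries and with its strongest peak, Itgb3 reached -0.24 with its strongest peak, and Itgb8 reached 0.13 with 2 of the scalings. The addition of nearest intergenic peaks (chosen after seeing the data) moved Itga8 from -0.77 to -0.37 and Itgb1 from -0.22 to -0.47, both to the edge of their counting intervals. Single integrin peaks rested on medians of 81 and 43.5 reads, and 13 of the 58 had an interval below 0, against 11.4% of all peaks. No paired analysis was possible because each condition has 1 library.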

Other observations

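Peaks between genes carry no symbol in the table and so stand outside the values above. For 33 of them the nearest annotated start belonged to 1 of the 10 integrin genes, a set chosen after seeing the data. Of these, 27 were lower in the siPiezo2 library, with a median log2 ratio of -0.32, and 6 were below 0.66 of SCR, while 0 were above 1.5. Of all 19452 peaks without a symbol, 66.3% were lower and 16.6% below 0.66, with a median of -0.17, so the 6 of 33 below 0.66 were near that share. Itgb1, whose own peaks all had intervals that included 0, had 7 such peaks upstream, and all 7 were lower, with a median of -0.46. The intervals of 4 of the 7 included 0, and 2 of the 7 windows overlap the window before them, so they are not 7 separate measurements. The lowest were these. The one at -5579 bases from an annotated start of Itgb1, on chromosome 8 from 129406295 to 129406817, had 68.2 in SCR and 33.4 in siPiezo2 (174 and 51 reads, log2 ratio -1.01, 95% exact binomial interval -1.49 to -0.55) and was called in both libraries. Another, from 129393005 to 129393610, had 38.2 and 13.9 (91 and 22 reads, log2 ratio -1.40, interval -2.14 to -0.71). Itga8 had 12 such peaks, of which 9 were lower, with a median of -0.21. The nearest start does not show which gene a site acts on.

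Itga1 holds another gene, Pelo, within its extent. The promoter peak of Pelo, on chromosome 13 from 115227033 to 115227463, had 56.9 in SCR and 33.8 in siPiezo2 (log2 ratio -0.74), near the -0.66 of the Itga1 start peak. The neighbouring promoter peak, assigned to Gm10734, had 24.8 and 33.2 (log2 ratio 0.40).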
